A study of Rattus norvegicus with 26 samples.

Results

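Primary neuronal cultures were compared with primary microglial cultures of newborn rat brain on oligonucleotide arrays. The comparison rested on 8 arrays of the 26 in the series, 4 labelled as primary neuronal culture (N) and 4 as primary microglial culture (M), chosen by that label alone; arrays of RNA mixtures were left out, and 4 astrocyte and 4 oligodendrocyte cultures entered only as background values and in the estimate of the spread. All neuronal arrays and microglial replicates 1 to 3 were described as cortical cultures of pups at postnatal day 1, with no treatment, strain or sex given. Microglial replicate 4 had the microglial cell type but a description that calls it a mixture of RNA. It was kept by its label, and results were recomputed without it. Its mean over 18 microglial markers was 11.08, the highest of the 4 microglial arrays, and over 16 neuronal markers 5.52, the lowest. Its oligodendrocyte and astrocyte marker lists averaged 7.19 and 5.71, within the range of the other microglial arrays. Whether other RNA was mixed in was not tested. The labels call the replicates biological but do not say whether they came from separate animals. The p-values then measure the spread between arrays, those of the astrocyte and oligodendrocyte cultures included.

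Neurons are postmitotic cells that carry electrical signals along axons and pass them on at synapses, by fusing vesicles of transmitter with the membrane. Microglia are the resident macrophages of the brain. They arise outside the neural lineage, divide in the tissue, take up debris and dying cells into lysosomes and survey their surroundings through receptors for nucleotides, lipids, complement and antibody. Neurons and microglia also address each other directly: several proteins on or released by neurons have their receptor on microglia. Many general cell functions are run by different members of the same gene family in the nervous system and in blood cells and macrophages.

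Values are the deposited log2 expression values, on which 1 unit is a doubling. Levels are given as mean ± SD over 4 arrays, and differences as neuronal minus microglial mean ± SE from limma. A gene was represented by 1 probe set, and it was called higher in a culture at a Benjamini-Hochberg adjusted p under 0.05 with a log2 difference of at least 1. Of 14217 genes, 2273 (16%) were higher in neuronal and 2314 (16.3%) in microglial cultures, 4587 (32.3%) together. All 4 arrays of one culture lay above all 4 of the other for 8045 genes (56.6%) and for 49% of probe sets. Every count of list members below is to be set against these shares. Over all genes the median difference was -0.12. Array medians lay between 5.25 and 5.31, and where the lower culture mean was below the median of every array, as for 835 of the genes higher in neurons and 859 of those higher in microglia, background compresses the difference and the fold is given as "at least". Other folds can be compressed too where the lower mean lay within or just above that range, as for Cx3cl1 (5.29) and P2ry6 (5.27). The arrays measure the RNA of a whole culture, so fewer cells of a type and less RNA per cell cannot be told apart.

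Directions depend on the scale. Centring each array on its ribosomal protein probe sets, in place of the deposited scale, moved the median difference of all probe sets from -0.10 to 0.62, and the share of called probe sets that were higher in neurons from 54.9% to 81.5%. Changes reported here are relative to the deposited scale, and the calls of named genes that this centring ended are given where the genes appear. Arrays of 1 culture correlated across genes with r of 0.974 to 0.995 (neurons) and 0.977 to 0.989 (microglia), and neuronal with microglial arrays with 0.736 to 0.808. Neuronal replicates 1 and 2 (r 0.992) and replicates 3 and 4 (r 0.995) formed closer pairs. On neuronal arrays the difference between 3′ and 5′ control probe sets was 1.54 to 2.27 for beta-actin and 1.12 to 1.85 for hexokinase. Both were highest on replicate 1. On microglial arrays the differences were 1.30 to 1.74 and 0.58 to 0.79. For GAPDH the difference was not higher on neuronal arrays (0.16 to 0.43) than on microglial ones (0.22 to 0.50). On microglial arrays 5′ hexokinase was 4.65 to 4.97, below every array median, where background compresses the difference. The part of the 3′ to 5′ differences in the results was not tested.

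The labels were checked against the defining markers of both cell types. All 16 measured neuronal markers were higher in neuronal cultures (median difference 4.82) and all 18 measured microglial markers in microglial cultures (median difference -7.28). Snap25, the neuronal membrane fusion protein, was 12.57, 12.55, 12.57 and 12.65 on the neuronal arrays and 4.93, 4.80, 6.56 and 4.41 on the microglial ones. Csf1r, the receptor that microglia need to survive, was 4.83, 4.63, 4.96 and 4.73 on the neuronal and 11.84, 12.08, 12.32 and 12.22 on the microglial arrays. For both genes the cultures lay far apart with no overlap.

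Transcripts of other cells were present in both cultures, and different ones in each. Of the 16 neuronal markers 10 had a microglial mean below every array median, but Gap43 (9.56 ± 0.49) and Map2 (8.67 ± 0.81) were well above it in microglial cultures. Both stood higher in oligodendrocyte cultures (10.49 and 10.66), so their level in microglial cultures does not assign them to neurons. In neuronal cultures 6 of 10 astrocyte markers were higher than in microglia, among them the filament Gfap (3.90 ± 0.67), the water channel Aqp4 (5.60 ± 1.01) and the gap junction protein Gja1 (4.47 ± 0.79). Gfap was 10.37, 11.34, 12.49 and 12.38 on the neuronal arrays and 8.26, 7.54, 6.57 and 8.63 on the microglial ones, so all neuronal arrays lay above all microglial ones, with replicates 3 and 4 above replicates 1 and 2. The astrocyte list averaged 7.0 to 9.01 on neuronal arrays and 5.67 to 6.04 on microglial ones, against 9.84 ± 0.46 in astrocyte cultures, and the log2 of its summed values was 11.72 to 14.07 against 10.35 to 10.67. In microglial cultures 7 of 11 oligodendrocyte markers and 3 of 5 precursor markers were higher, among them myelin basic protein, Mbp (12.08 ± 0.74 against 7.15 ± 0.93), the tight junction protein Cldn11 (8.26 ± 1.09 against 3.73 ± 0.55) and the precursor receptor Pdgfra (9.54 ± 0.59 against 5.04 ± 0.65). The oligodendrocyte list averaged 6.39 to 7.69 on microglial arrays, lowest on replicate 3, and 4.72 to 4.93 on neuronal ones, against 9.30 ± 0.94 in oligodendrocyte cultures, and the log2 of its summed values was 11.85 to 13.51 against 9.11 to 9.38. Of the genes higher in neurons, 303 (13.3%) had an astrocyte culture mean at or above the neuronal one, and of those higher in microglia, 504 (21.8%) had an oligodendrocyte culture mean at or above the microglial one. Oligodendrocyte cultures themselves held microglial markers, with a list mean of 8.77 ± 0.45 against 10.92 ± 0.25 in microglial and 4.62 ± 0.09 in neuronal cultures, so a high level there does not assign a transcript to oligodendrocytes. Of the called genes named here, 12 of 94 higher in neurons and 21 of 121 higher in microglia had an astrocyte or oligodendrocyte culture mean at or above that of the higher culture. For those that are not glial markers this level is given with the gene. Levels slightly below the higher culture are mostly not given. Examples are Elf1 and Arpc1b, at 8.62 and 11.36 in oligodendrocyte against 8.73 and 11.87 in microglial cultures. Itgb5 likewise stood at 9.98 in astrocyte against 10.36 in microglial cultures. A call is therefore a difference between neuronal and microglial cultures only. The part of these cells in the results was not tested.

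Markers of macrophages at the borders of the brain were higher in microglia for 4 of 6 genes. These were the mannose receptor Mrc1 (at least 149-fold), the scavenger receptor Stab1 (at least 157-fold), the platelet factor Pf4 (at least 136-fold) and the hyaluronan receptor Lyve1 (at least 10.7-fold), while the border macrophage list had a log2 summed level of 12.94 to 13.20 on microglial and 6.48 to 6.68 on neuronal arrays. No endothelial (of 9) or lymphocyte (of 8) marker was called. 1 of 10 fibroblast and mural markers, Postn, was higher in neurons (adjusted p = 0.0296). The Postn call was lost when any 1 array other than neuronal replicate 2 or microglial replicate 1 was left out. Postn was 7.47 ± 0.46 in neuronal and 3.82 ± 0.37 in microglial cultures, without overlap. The estimate of the spread takes in astrocyte cultures too, where Postn was 6.52 ± 4.00. Leaving out neuronal replicate 2 or microglial replicate 2 added 1 endothelial call.

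**Figure D1:**
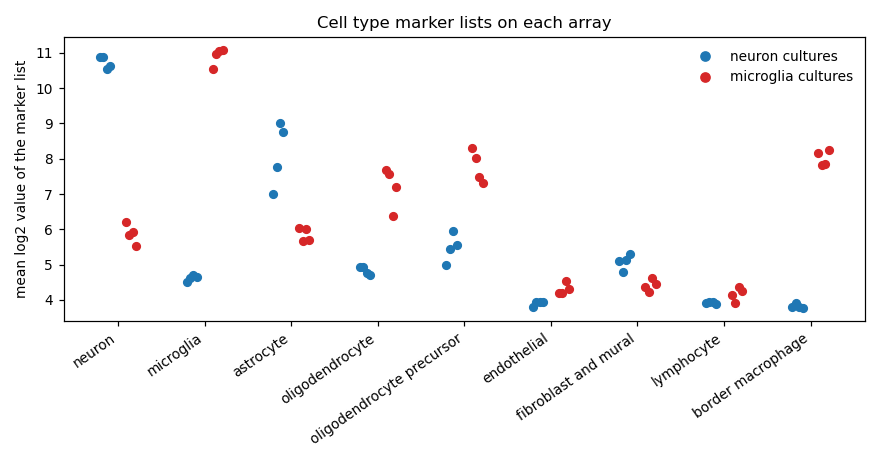
Mean log2 value of 9 cell type marker lists (horizontal axis) on each of the 4 neuronal and 4 microglial arrays; each point is 1 array. The neuron and microglia lists separate the cultures, the astrocyte list lies between 7.0 and 9.01 on the neuronal arrays, and the oligodendrocyte list lies between 6.39 and 7.69 on the microglial arrays.

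Genes furthest apart are given first for neurons. The 12 largest differences without overlap of the arrays were those of the microtubule regulator Stmn2 (at least 322-fold), the GABA-synthesising enzyme Gad1 (at least 296-fold), the calcium sensor Vsnl1 (at least 186-fold), Plppr4 (at least 176-fold), Snap25 (at least 170-fold), the transcription factor Bhlhe22 (at least 166-fold), the cannabinoid receptor Cnr1 (at least 159-fold), the noncoding RNA Meg3 (at least 156-fold), Elmod1 (at least 156-fold), the interneuron peptide Vip (at least 141-fold), the sodium channel-binding Fgf13 (at least 122-fold) and the complexin Cplx1 (at least 119-fold). Their adjusted p lay between 1.61e-13 and 1.21e-07. Stmn2 stood at 11.47 in astrocyte cultures. The next group is of genes whose microglial mean lay above every array median. Single microglial arrays were still below it for Sncb, Cck, Pcp4 and Cadps (5.05 and 4.89 on replicates 3 and 4), so compression by background is not excluded for them. The group was led by the synuclein Sncb (58.8-fold), cholecystokinin, Cck (55.9-fold), Ndrg4 (50.5-fold), the amino acid transporter Slc6a17 (50.4-fold), the calmodulin-binding Pcp4 (46.3-fold), the G protein subunit Gng3 (45.7-fold), Stmn3 (44.3-fold) and Cadps, which primes dense-core vesicles (41.5-fold).

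On the microglial side the 12 largest were the pore-forming Mpeg1 (at least 359-fold), the macrophage receptor Adgre1 (at least 318-fold), the shared signalling chain of Fc receptors, Fcer1g (at least 294-fold), the inhibitory Fc receptor Fcgr2b (at least 248-fold), the microglial calcium-binding protein Aif1 (at least 242-fold), Fcrl2 (at least 236-fold), the complement chain C1qa (at least 233-fold), the lectin Clec4a3 (at least 232-fold), Ms4a6bl1 (at least 227-fold), the chemokine Ccl6 (at least 221-fold), the lysosomal Cd68 (at least 211-fold) and the tetraspanin Cd53 (at least 211-fold). Adjusted p lay between 1.94e-12 and 1.10e-05. Adgre1 stood at 11.63 in oligodendrocyte cultures. Among genes whose neuronal mean lay above every array median, the largest were the protease cathepsin S, Ctss (174-fold), lysozyme, Lyz2 (106-fold), osteopontin, Spp1 (80.7-fold), the Arp2/3 subunit Arpc1b (73.0-fold, 4.79 on neuronal replicate 1), Tmem176a (70.8-fold), the lipid transfer protein Pltp (67.7-fold), Tmem176b (64.5-fold) and the lipid receptor Trem2 (62.0-fold). Spp1 was 13.06, 13.50 and 13.25 on microglial replicates 1 to 3 and 11.17 on replicate 4, all above the 6.25 to 6.62 of the neuronal arrays.

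Promoters were read for what the called genes share. The windows are those of RefSeq on the rat assembly GRCr8, from 250 bases before to 50 bases after the annotated start, on the gene's strand. PU.1 is the ETS-family factor that directs the macrophage lineage, and its purine-rich site was searched as GAGGAAGT on both strands. A match was held by 2 of 12 windows of microglial markers, 3 of 11 of Fc receptor and ITAM genes, 3 of 13 of leukocyte actin regulators and 0 of 13 of myeloid transcription factors. The following 4 show what a match looks like and are the windows with one from the first and second of these lists, other than that of Fcgr3a. They are Cd53 (chr2:197087847-197088146, minus strand), Ctss (chr2:185775146-185775445, plus strand), Vav1 (chr9:2248705-2249004, plus strand) and Inpp5d (chr9:95735283-95735582, plus strand). Elavl4, an RNA-binding protein of neurons (chr5:130367614-130367913, minus strand), holds the half-site TTCAGCACC of the element bound by the repressor Rest, the 1 match among 10 windows of neuronal splicing genes. Capitals mark the match, on either strand.
Cd53: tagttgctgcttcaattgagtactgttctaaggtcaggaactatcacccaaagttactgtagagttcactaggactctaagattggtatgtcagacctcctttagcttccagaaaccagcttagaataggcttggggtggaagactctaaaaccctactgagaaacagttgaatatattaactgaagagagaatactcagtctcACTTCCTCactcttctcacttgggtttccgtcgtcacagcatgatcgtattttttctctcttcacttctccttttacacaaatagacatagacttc
Ctss: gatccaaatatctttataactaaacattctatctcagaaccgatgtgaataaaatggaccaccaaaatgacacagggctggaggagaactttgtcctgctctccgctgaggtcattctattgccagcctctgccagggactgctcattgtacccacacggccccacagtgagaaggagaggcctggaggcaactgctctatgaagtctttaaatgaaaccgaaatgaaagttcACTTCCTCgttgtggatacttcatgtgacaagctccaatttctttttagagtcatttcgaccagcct
Vav1: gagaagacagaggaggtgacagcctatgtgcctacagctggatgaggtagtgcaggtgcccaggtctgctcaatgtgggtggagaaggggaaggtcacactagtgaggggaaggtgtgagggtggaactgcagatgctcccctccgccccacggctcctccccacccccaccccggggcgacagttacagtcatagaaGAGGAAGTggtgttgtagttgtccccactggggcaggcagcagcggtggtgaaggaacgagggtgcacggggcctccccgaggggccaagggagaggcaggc
Inpp5d: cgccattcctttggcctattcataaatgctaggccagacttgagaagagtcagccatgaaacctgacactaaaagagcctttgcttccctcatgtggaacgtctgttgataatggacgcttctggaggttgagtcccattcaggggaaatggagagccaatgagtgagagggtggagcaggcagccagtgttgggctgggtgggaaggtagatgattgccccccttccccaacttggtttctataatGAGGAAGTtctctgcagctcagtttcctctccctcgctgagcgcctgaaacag
Elavl4: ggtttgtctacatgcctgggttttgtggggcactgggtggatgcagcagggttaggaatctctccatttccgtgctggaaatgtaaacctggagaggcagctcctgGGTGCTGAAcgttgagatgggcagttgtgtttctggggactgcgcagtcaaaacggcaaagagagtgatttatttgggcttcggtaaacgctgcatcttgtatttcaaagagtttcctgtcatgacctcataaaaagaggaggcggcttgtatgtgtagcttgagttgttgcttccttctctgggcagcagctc

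In Cd53 and Ctss the match reads as ACTTCCTC, at bases 205 to 212 and 234 to 241 of the window. In Vav1 it lies at bases 199 to 206 and in Inpp5d at bases 248 to 255, across the annotated start. In Elavl4 the half-site lies at bases 107 to 115. The windows of Cd53, Ctss, Vav1, Inpp5d and Elavl4 hold 3, 6, 8, 5 and 7 CpG dinucleotides. Over all 27457 promoters of the table the PU.1 letters occurred in 2.42%. A window was found for 84.1% of genes higher in microglia, 80.4% of those higher in neurons and 82.3% of all genes tested. The PU.1 letters were in 3.91% (76 of 1945), 1.97% (36 of 1827) and 2.45% (287 of 11700) of these windows. Among genes higher in microglia by at least 3 they were in 6.90% (33 of 478). The Rest half-site was in 1.09% (20) of windows of genes higher in neurons, 0.257% (5) of those higher in microglia and 0.470% of all genes tested, against 0.375% of all promoters. Other motifs searched on both strands were the lysosomal CLEAR element TCACGTGA (1.04%, 2.06% and 1.45% of the 3 sets in the same order, 0.860% of all promoters), the sterol element TCACCCCAC (0.219%, 0.308%, 0.385% and 0.484%) and TATAAA (6.84%, 7.66%, 8.44% and 14.3%). None of these overlaps the PU.1 letters. Such a match is a description of letters and not a binding site, and it varies with base composition.

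The promoters of the genes most elevated in microglia held fewer CpG dinucleotides at the median than those of all genes tested. The median count was 21 in genes higher in neurons, 20 in genes higher in microglia and 19 in all genes, but 14 in genes higher in microglia by at least 3, of which 39.7% had fewer than 10, against 26.3% of all genes. For genes higher in neurons by at least 3 the median was 20 and 22.1% had fewer than 10, but a window was found for only 76.4% of them, below the 80% taken here as the least for such a comparison. Most single lists fell below it too, and the counts of matches in them describe only the windows found. Genes higher in neurons spanned more of the genome. The median span from start to end of the annotated gene was 34.7 kb for them, 24.4 kb for genes higher in microglia and 22.3 kb for all genes, and 26.9%, 11.8% and 13.7% spanned over 100 kb. By a difference of at least 4 the medians were 55.4 kb (neurons, 269 genes) and 22.3 kb (microglia, 308 genes). Array probes lie near the 3′ end, so these values do not speak of how much of a long gene was transcribed.

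**Figure D2:**
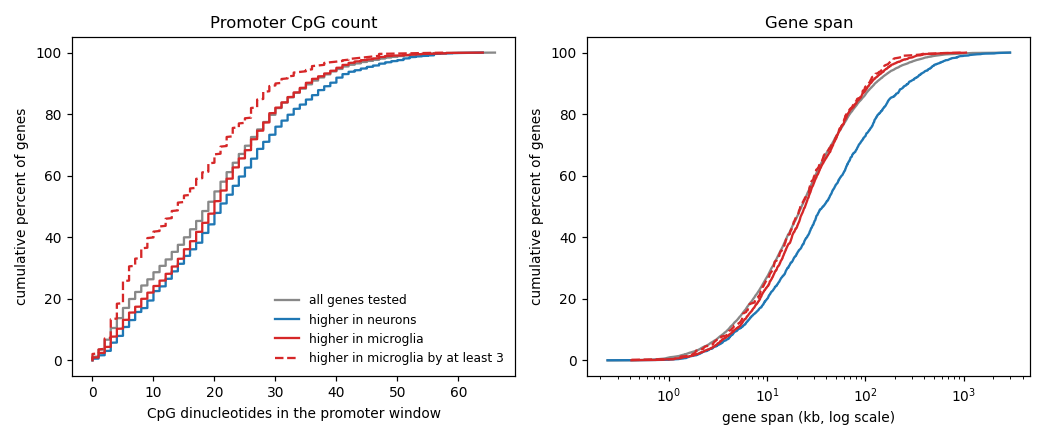
Cumulative percent of genes by the number of CpG dinucleotides in the promoter window (left) and by gene span in kb on a log scale (right), for all genes tested, genes higher in neurons and genes higher in microglia; the dashed line holds genes higher in microglia by at least 3. The dashed line lies to the left in the CpG plot (median 14 against 19 for all genes) and the neuronal line to the right in the span plot (median 34.7 kb against 22.3 kb).

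Receptors by which microglia read neurons were higher in microglia, and their ligands were divided. Of 15 measured ligands read by microglia, 7 were higher in neurons and 3 in microglia, and all 15 measured receptors were higher in microglia (median difference -4.40). The receptor list did not hold Tyro3, which was higher in neurons and is described with its family. Fractalkine, Cx3cl1, the membrane chemokine by which neurons restrain microglia, was 10.15, 9.94, 9.24 and 9.41 on the neuronal arrays and 5.26, 5.66, 5.18 and 5.05 on the microglial ones, 21.1-fold higher (adjusted p = 1.72e-08). Its receptor Cx3cr1 was 4.41, 4.34, 4.52 and 4.40 on the neuronal and 5.01, 6.42, 7.55 and 6.58 on the microglial arrays, at least 3.93-fold higher (adjusted p = 0.000225). Neither gene overlapped between the cultures, and the receptor was spread more widely over the microglial than over the neuronal arrays, with microglial replicate 1 below its array's median. Cx3cl1 itself lay below the array median on microglial replicates 3 and 4.

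Cd200, a membrane glycoprotein that quiets myeloid cells, was 10.58, 10.69, 10.72 and 10.83 on the neuronal arrays and 5.26, 5.94, 4.33 and 4.26 on the microglial ones, at least 54.1-fold higher (adjusted p = 2.45e-07). Its receptor Cd200r1 was 4.00, 3.77, 4.03 and 3.88 on the neuronal and 6.40, 7.34, 7.51 and 8.39 on the microglial arrays, at least 11.2-fold higher (adjusted p = 3.00e-08). Neither overlapped. Cd24, a glycoprotein that binds inhibitory lectins of myeloid cells, was at least 48.3-fold higher in neurons, and it stood at 10.47 in astrocyte cultures against 9.76 ± 0.66 in neuronal ones. The lectin Cd33 was at least 83.7-fold higher in microglia. Cd47, the signal that protects cells from being engulfed, was 9.47 ± 0.39 in neuronal and 9.96 ± 0.41 in microglial cultures (difference -0.48 ± 0.20, not called, 0.24 with ribosomal centring), with overlapping arrays. Its receptor Sirpa was 4.78-fold higher in microglia.

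The receptor Csf1r has a pair of ligands, and only one of them was higher in neurons. Il34 was 7.70, 7.68, 5.94 and 6.20 on the neuronal arrays and 4.26, 4.61, 4.92 and 4.68 on the microglial ones, at least 4.80-fold higher (adjusted p = 0.000175), and it stood at 7.51 in astrocyte cultures. No array overlapped, and neuronal replicates 1 and 2 lay above replicates 3 and 4. Csf1 was 7.63 ± 0.20 in neuronal and 8.08 ± 0.28 in microglial cultures (difference -0.45 ± 0.17, not called, 0.27 with ribosomal centring). Csf1r itself was at least 161-fold higher in microglia.

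Transforming growth factor beta 1, which maintains microglial identity, was higher in microglia together with its receptor. Tgfb1 was 4.24, 5.07, 4.69 and 4.56 on the neuronal and 10.03, 10.08, 9.96 and 10.29 on the microglial arrays, at least 43.7-fold higher (adjusted p = 1.28e-09). Tgfbr1 was 31.5-fold higher (6.68 ± 0.38 against 11.65 ± 0.37). The integrin chains Itgav (6.12-fold) and Itgb5 (13.4-fold), which bind bridging proteins on dying cells, were also higher in microglia.

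The TAM receptors, tyrosine kinases by which phagocytes take up dying cells through the bridging ligands Gas6 and protein S, split within the family. Axl was 24.5-fold and Mertk at least 21.1-fold higher in microglia. Axl stood at 10.01 in astrocyte cultures, close to its 10.13 in microglial ones, and Mertk at 5.22. Tyro3 was 7.74, 7.55, 7.46 and 7.66 on the neuronal arrays and 7.07, 6.53, 4.91 and 5.34 on the microglial ones, 3.12-fold higher in neurons with no overlap (adjusted p = 0.0369). The Tyro3 call was lost when any neuronal array, or microglial replicate 3 or 4, was left out, and it stood at 8.31 in astrocyte and 8.26 in oligodendrocyte cultures. Both ligands were higher in microglia, Pros1 9.15-fold and Gas6 3.09-fold, and higher still in astrocyte cultures (9.44 and 11.48). Another probe set of Gas6 was called the opposite way, the single such case among the named genes, and the Gas6 call was lost with ribosomal centring (difference -0.91).

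Other neuronal surface and synaptic ligands were higher in neurons, namely the adhesion molecule Ncam1 (14.2-fold), the pentraxin Nptx1 (at least 7.25-fold) and the dendritic adhesion molecule Icam5 (2.74-fold). Icam5 was 7.98 and 7.80 on neuronal replicates 1 and 2 and 6.25 and 6.19 on replicates 3 and 4, and its call was lost without the first pair (difference 0.62). The microglial nucleotide receptors P2ry12 (at least 101-fold) and P2ry6 (15.3-fold) and the complement receptor chains Itgam (4.90-fold) and Itgb2 (at least 58.1-fold) were higher in microglia.

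**Figure D3:**
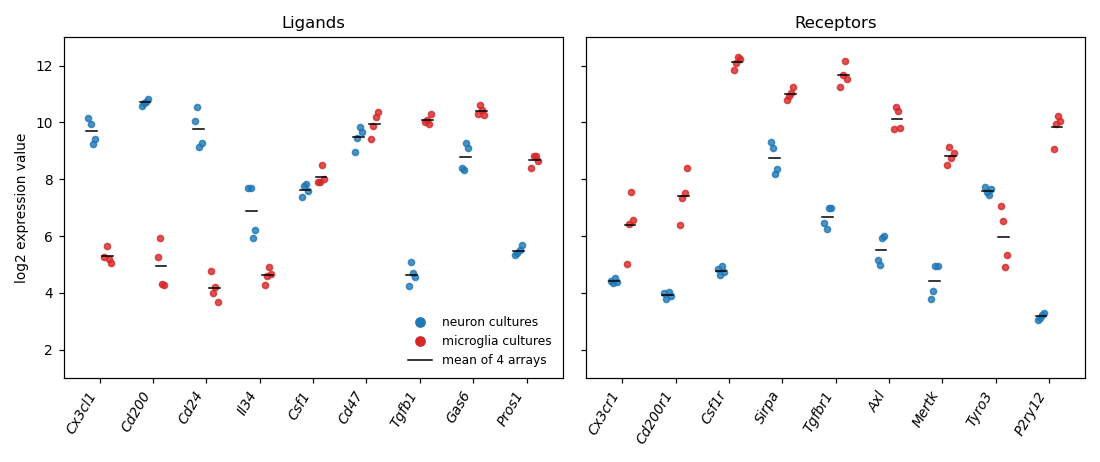
Log2 expression values of 9 ligands (left) and 9 receptors (right) on each of 4 neuronal and 4 microglial arrays; each point is 1 array and each black line the mean of 4. Cx3cl1, Cd200, Cd24 and Il34 lie higher on the neuronal arrays, Tgfb1, Gas6 and Pros1 on the microglial arrays, and every receptor but Tyro3 on the microglial arrays.

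Secreted cytokines and growth factors were mostly microglial. Of 17 measured, 10 were higher in microglia and 2 in neurons. Interleukin 18, Il18 (at least 37.4-fold), the chemokine Ccl3 (at least 54.3-fold) and tumour necrosis factor, Tnf (at least 12.8-fold), were among the former, and Tnf varied from 6.0 to 8.44 over the microglial arrays. In oligodendrocyte cultures Il18, Ccl3 and Tnf stood at 10.18, 10.71 and 7.52, against 9.98, 10.71 and 7.10 in microglial ones. The growth factor Igf1 was 6.62, 6.59, 8.97 and 8.82 on the neuronal and 12.61, 12.79, 12.78 and 11.99 on the microglial arrays, 27.7-fold higher in microglia. The neurotrophin Bdnf, which supports neurons and synapses, was 6.48, 6.28, 8.61 and 8.66 on the neuronal and 4.00, 4.11, 3.81 and 3.70 on the microglial arrays, at least 12.2-fold higher in neurons (adjusted p = 0.000134). For both genes the cultures did not overlap and neuronal replicates 3 and 4 lay apart from replicates 1 and 2, above them. Pdgfa (difference 1.14 ± 0.42, 8.08 in oligodendrocyte cultures against 7.46 in neuronal ones) made up the count in neurons, which fell to 1 when neuronal replicate 1 or 2 or microglial replicate 2, 3 or 4 was left out. Il1a did not pass, at -2.27 ± 0.93 (adjusted p = 0.0527), and passed in 5 of the alternatives, such as the fit on the 8 arrays alone. Il1a was 3.92 ± 0.06 in neuronal and 6.19 ± 0.22 in microglial cultures, without overlap. The main fit also takes its spread from oligodendrocyte cultures, where Il1a was 8.20 ± 2.90.

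Most listed transcription factors were higher in the culture of their lineage. Of 14 factors of cortical neurons, 9 were higher in neurons, 4 were not called and 1, Zeb2, was higher in microglia, and of 15 myeloid factors, 14 were higher in microglia (median difference -4.27). Myt1l, which represses non-neuronal programs, was at least 24.5-fold higher in neurons, and the cortical factors Bcl11b and Bcl11a at least 24.6-fold and 13-fold. Dlx1, a factor of inhibitory neurons, was at least 22.1-fold higher. Neurod6, of excitatory neurons, was 9.36, 9.73, 6.99 and 7.34 on the neuronal arrays and 3.77 to 5.05 on the microglial ones, with replicates 1 and 2 above replicates 3 and 4 and no overlap.

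On the microglial side were the interferon regulatory factor Irf8 (at least 45.4-fold), Runx1 (at least 22.8-fold), the myeloid factor Cebpa (at least 26.4-fold), Tfec of the MiT family (at least 36.8-fold) and the ETS factor Elf1 (at least 36.2-fold). Cebpa was 5.17 to 5.29 on the neuronal and 9.82 to 10.05 on the microglial arrays. Sall1, which sets brain microglia apart from other macrophages, was 7.31, 7.28, 7.06 and 5.19 on the microglial arrays and 5.3, 5.29, 5.85 and 5.37 on the neuronal ones. Microglial replicate 4 lay below every neuronal array. The call (2.38-fold, adjusted p = 0.0216) was lost when microglial replicate 1, 2 or 3 was left out or with ribosomal centring (-0.53). Sall1 stood at 8.26 in astrocyte and 8.04 in oligodendrocyte cultures.

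A few factors known from both lineages were at sizeable levels in both cultures. Mef2c, which acts in cortical neurons and in microglia, was 12.28, 12.42, 10.88 and 10.75 on the neuronal and 9.36, 9.84, 10.06 and 9.95 on the microglial arrays, 3.43-fold higher in neurons and 5.65 in astrocyte cultures. Zeb2 was 7.84 ± 0.46 in neuronal and 9.21 ± 0.37 in microglial cultures, 2.58-fold higher in microglia and 9.26 in oligodendrocyte cultures. The Zeb2 call was lost without neuronal replicates 3 and 4 (-0.99) and with ribosomal centring (-0.65).

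RNA-binding proteins that set neuronal splicing were higher in neurons for 11 of 14 members (median difference 3.27), and none was higher in microglia. Rbfox1 (at least 33.2-fold), Rbfox2 (at least 22.4-fold), Rbfox3, the antigen NeuN (at least 31.8-fold), Celf5 (at least 57.4-fold) and the Elav proteins Elavl2 (at least 27.8-fold) and Elavl4 (at least 13.8-fold) were among them. The polypyrimidine tract proteins exchange during neuronal differentiation, Ptbp1 holding back neuronal exons and Ptbp2 taking its place. Ptbp1 was 6.71, 7.01, 6.53 and 6.90 on the neuronal and 10.18, 10.25, 10.23 and 10.19 on the microglial arrays, 10.7-fold higher in microglia (adjusted p = 3.00e-12). Ptbp2 was 9.13, 8.83, 8.24 and 8.71 on the neuronal and 7.06, 7.15, 5.83 and 6.24 on the microglial arrays, 4.45-fold higher in neurons (adjusted p = 1.14e-05). Both were without overlap, and Ptbp3, the form of blood cells, was 12.9-fold higher in microglia.

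Of 10 repressors of neuronal genes, 5 were higher in microglia (3 with ribosomal centring). Ctdsp1, a phosphatase that works with Rest, was 9.35-fold higher (5.32 ± 0.19 against 8.55 ± 0.11) and stood at 9.24 in astrocyte cultures, while Rest itself was below every array median in both cultures (difference -0.23 ± 0.11, 0.49 with ribosomal centring). The BAF chromatin remodelling complex also exchanges subunits as neurons leave the cell cycle. Its neuronal actin-related subunit Actl6b was 8.98, 8.93, 8.79 and 8.86 on the neuronal and 4.68, 4.59, 4.61 and 4.42 on the microglial arrays, at least 19.9-fold higher. Its counterpart in dividing cells, Actl6a, was 5.99, 6.16, 5.55 and 5.96 against 8.89, 8.97, 8.56 and 8.59, 7.15-fold higher in microglia and 8.95 in oligodendrocyte cultures. The subunits thus lay in opposite cultures with no overlap. Ss18, the form of dividing cells, was 6.68-fold higher in microglia, and Ss18l1, its neuronal counterpart, was below every array median in both (0.13 ± 0.10).

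Most listed channels of neurons and transmitter receptors were higher in neurons. These were 10 of 14 channels and 14 of 17 receptors, the others not being called. The sodium channel Scn2a (at least 26.9-fold), the fast potassium channel Kcnc2 (at least 30.9-fold) and the presynaptic calcium channel Cacna1b (at least 16.6-fold) were among the channels. Among the receptors were the GABA-A subunit Gabrb2 (at least 107-fold), both GABA-B subunits, Gabbr1 (24.3-fold) and Gabbr2 (at least 37.9-fold), the NMDA subunit Grin1 (15.4-fold) and the metabotropic Grm5 (at least 13.6-fold). Of 13 channels described in microglia 7 were higher in microglia, namely the ATP-gated P2rx4 (22.4-fold), the chloride channel protein Clic1 (18.6-fold), the potassium channel Kcnk6 (at least 5.58-fold), Trpv2, Trpm7, Orai1 and Kcnk13. Clic1 stood at 11.64 in astrocyte cultures. P2rx4 was 5.01 to 5.61 on the neuronal and 9.40 to 10.26 on the microglial arrays.

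Genes of phagocytosis and immune signalling were higher in microglia. All 16 members of the Fc receptor and ITAM list, 3 of which are also microglial markers, were higher in microglia (median difference -5.22). ITAM adaptors such as Tyrobp (at least 157-fold) pair with receptors such as Trem2 and recruit kinases, and downstream of them were the adaptor Blnk (at least 78.4-fold), the exchange factor Vav1 (at least 24.5-fold) and the phospholipase Plcg2 (at least 5.21-fold). The brakes of the pathway, the phosphatases Ptpn6 (at least 62.8-fold) and Inpp5d (at least 23.9-fold), were higher as well. Vav1 was 4.33 to 4.63 on the neuronal and 8.73 to 9.56 on the microglial arrays, and Inpp5d 4.71 to 5.02 and 9.42 to 9.68.

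The oxidase that produces superoxide in phagocytes was higher with both membrane subunits, Cybb (at least 110-fold) and Cyba (60.6-fold), and 8 of the 14 genes of its list were higher in microglia, including the haem oxygenase Hmox1 (23.4-fold). Toll-like receptor and inflammasome genes were higher in microglia for 18 of 19 members (median difference -4.16). These included Tlr2 (at least 68.4-fold), the endosomal Tlr8 (at least 45.4-fold), the lipopolysaccharide co-receptor Cd14 (at least 132-fold), the inflammasome adaptor Pycard (at least 36.3-fold) and the shared transcription factor Nfkb1 (8.01-fold). Lysosomal genes were higher for 18 of 19 (median difference -3.61). Cathepsin Z, Ctsz, was at least 147-fold higher, the beta-hexosaminidase chain Hexa 12.2-fold and progranulin, Grn, 18.5-fold, from 8.69 to 8.98 on the neuronal arrays to 12.95 to 13.09 on the microglial ones.

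Most antigen presentation genes were higher in microglia. Of 18 genes 12 were higher in microglia and 6 not called. The non-classical class II chain RT1-DMb was 35.9-fold higher and the class I light chain B2m 7.27-fold higher. B2m was 8.95, 10.02, 11.38 and 11.32 on the neuronal arrays. The class II chaperone Cd74 was 3.84, 3.78, 3.79 and 4.01 on the neuronal and 4.21, 5.71, 5.18 and 4.95 on the microglial arrays, at least 2.23-fold higher in microglia, although 3 of the 4 microglial values lay below the medians of their arrays. The Cd74 call was lost without microglial replicate 2 (-0.92) and with ribosomal centring (-0.44).

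**Figure D4:**
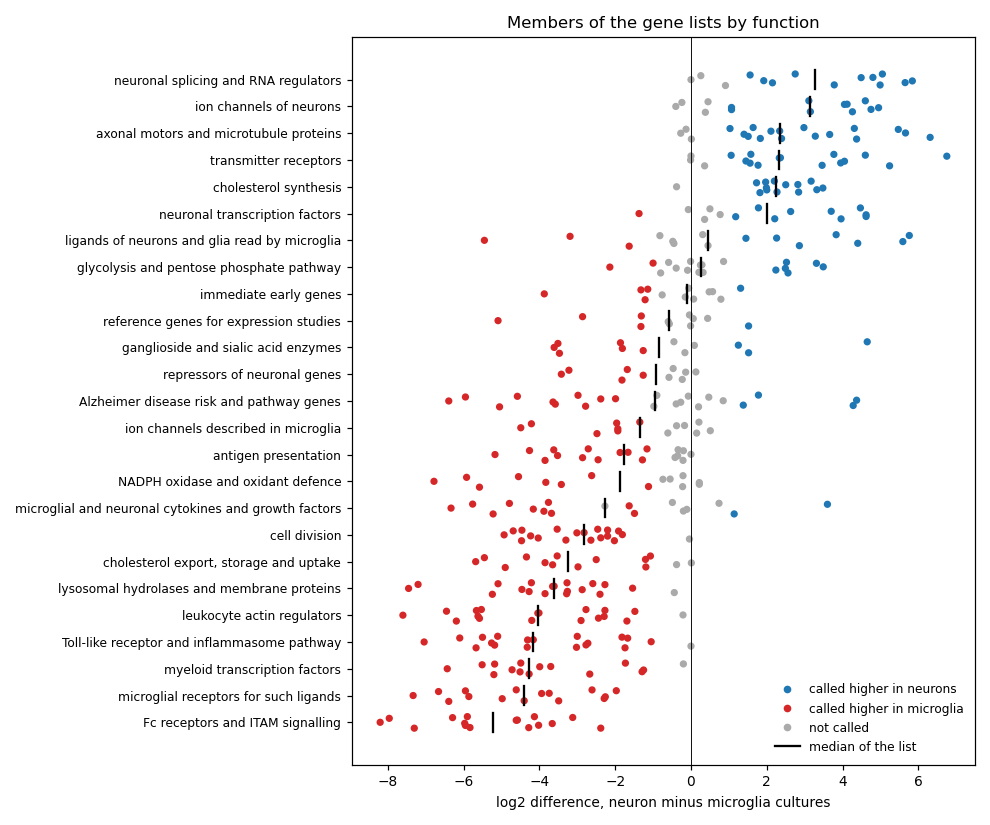
Log2 difference, neuronal minus microglial cultures, of every measured member of 25 gene lists by function; each point is 1 gene, coloured by its call, and the black line is the median of the list. Lists of neuronal splicing, channels, motors and cholesterol synthesis lie to the right of 0, and lists of Fc receptor, Toll-like receptor, lysosomal and leukocyte actin genes lie to the left.

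Some families of common cell machinery had members called in opposite directions. Of 63 families of related genes, 31 had at least 1 member higher in neurons and at least 1 higher in microglia, 15 had members higher in neurons only, 16 in microglia only and 1 had none. Over the families 90 of 293 genes (30.7%) were higher in neurons and 92 (31.4%) in microglia, against 16% and 16.3% of all genes. How often families of these sizes would hold calls both ways by chance was not tested. Genes of membrane fusion are given first. Snap25 was higher in neurons and its widely expressed counterpart Snap23 in microglia (at least 19.1-fold), where it was 9.41 to 9.65 against 4.83 to 5.70 on the neuronal arrays. The target membrane protein Stx1a was at least 31.7-fold higher in neurons and Stx3 5.11-fold higher in microglia. On the vesicle side Vamp2 was 13.2-fold higher in neurons and Vamp8 19.7-fold higher in microglia, and the vesicle GTPase Rab3a 27.8-fold higher in neurons and Rab27a at least 15.5-fold higher in microglia.

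The actin machinery held further cases. In the WAVE complex Nckap1 was 4.01-fold higher in neurons (12.04, 11.94, 11.65 and 11.58 against 10.35, 10.14, 9.42 and 9.29), and its blood-cell form Nckap1l was at least 46.2-fold higher in microglia (4.12, 4.38, 4.49 and 4.57 against 9.62, 9.59, 9.92 and 10.57). Neither overlapped. Cortactin, Cttn, was 2.42-fold higher in neurons and its blood-cell relative Hcls1 16.1-fold higher in microglia, with Cttn at 9.81 in astrocyte and 9.28 in oligodendrocyte cultures against 9.17 in neuronal ones. Of the GTPases that drive actin, Rac3 was 4.86-fold higher in neurons, Rac2 47.8-fold higher in microglia and the ubiquitous Rac1 11.84 ± 0.15 and 12.11 ± 0.06 (difference -0.27 ± 0.10, 0.45 with ribosomal centring). Their inhibitors followed, Arhgdig 8.76-fold higher in neurons and Arhgdib 6.80-fold higher in microglia. Profilin 2, Pfn2, was 9.28-fold higher in neurons and Pfn1 4.89-fold higher in microglia, and the non-muscle myosins Myh10 (7.75-fold, neurons) and Myh9 (7.40-fold, microglia) stood likewise opposite. Myh10 and Myh9 stood at 11.20 and 10.09 in astrocyte cultures, and Pfn1 at 11.17 in oligodendrocyte cultures against 11.11 in microglial ones. Of 18 leukocyte actin regulators 17 were higher in microglia, led among those named here by plastin, Lcp1 (at least 194-fold).

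Signalling enzymes and transporters held further pairs called in opposite directions. Of G protein subunits Gnao1 (28.5-fold) was higher in neurons and Gna15 (at least 12.8-fold) in microglia. Among the RGS proteins, which end G protein signals, Rgs4 was at least 70.2-fold higher in neurons and Rgs18 at least 106-fold in microglia. Adcy2 (at least 15-fold, neurons) stood opposite Adcy4 (at least 18.8-fold, microglia), and the calcium release channel Itpr1 (4.70-fold, neurons) opposite Itpr2 (at least 3.53-fold, microglia, and 7.75 in oligodendrocyte against 6.89 in microglial cultures). Protein kinase C genes divided into Prkce (9.32-fold) and Prkcz (9.47-fold) in neurons and Prkcd (13-fold) in microglia, and the tubulins into Tubb3 (24.8-fold) and Tubb6 (7.98-fold), which stood at 10.91 in astrocyte and 9.39 in oligodendrocyte cultures against 9.39 in microglial ones. In the proton pump Atp6v1g2, a neuronal subunit, was 29.0-fold higher in neurons, and Tcirg1, the subunit of osteoclasts and macrophages, 16.8-fold higher in microglia. Dynamin 1, Dnm1, of synaptic endocytosis was 9.78-fold higher in neurons, and the ubiquitous Dnm2 2.55-fold higher in microglia, a call lost with ribosomal centring (-0.63).

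**Figure D5:**
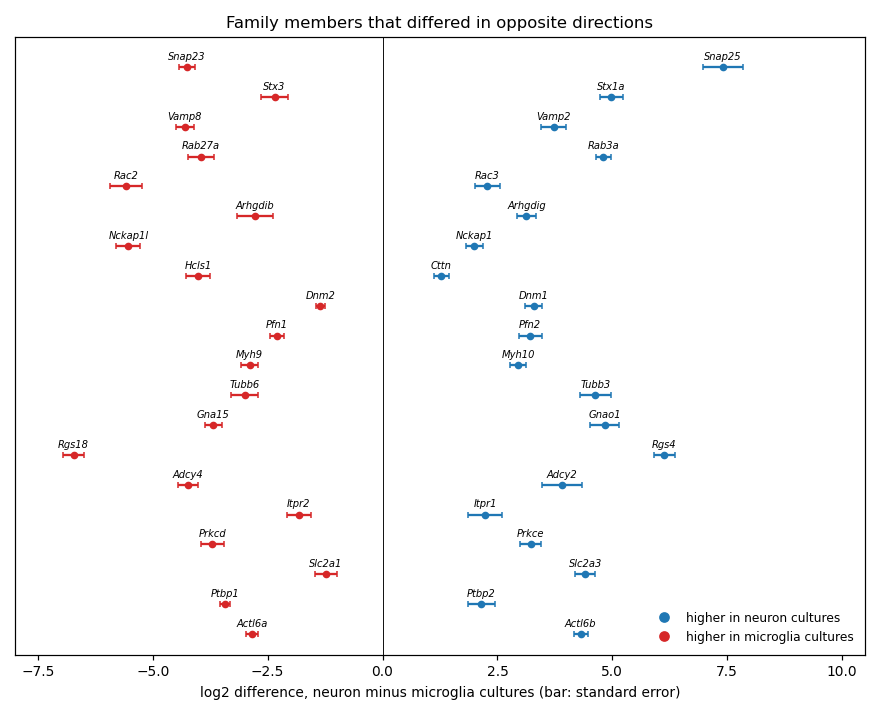
Log2 difference, neuronal minus microglial cultures, for 20 pairs of genes of the same family, 1 pair per line; points are differences and bars their standard errors (n = 4 arrays per culture). The pairs were drawn because their members were called in opposite directions, from 7.41 for Snap25 to -6.72 for Rgs18.

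Axonal transport and microtubule genes were higher in neurons for 16 of 19 members (median difference 2.34), with none higher in microglia. The neuronal kinesin Kif5a was at least 50.4-fold, the dynein chain Dync1i1 at least 79.5-fold and tau, Mapt, 20.6-fold higher. The structural markers Map2 and Gap43 were 7.87-fold and 6.31-fold higher. In microglial cultures Mapt, Map2 and Gap43 still stood at 8.11, 8.67 and 9.56, and in oligodendrocyte cultures at 10.02, 10.66 and 10.49. Cell division genes went the opposite way to axonal transport genes. Of 19 genes 18 were higher in microglia (median difference -2.82), including the mitotic kinase Cdk1 (at least 30.5-fold), the proliferation antigen Mki67 (at least 25.7-fold) and the topoisomerase Top2a (at least 22-fold). Cdk1 was 3.89, 4.12, 4.41 and 3.90 on the neuronal arrays and 9.12, 9.02, 8.82 and 9.08 on the microglial ones, and its neuronal mean lay below every array median. Cdk1 stood at 9.39 in astrocyte and 8.69 in oligodendrocyte cultures, and Top2a at 9.13 in both astrocyte and microglial ones.

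Cholesterol genes divided by role. Of 14 enzymes of synthesis 13 were higher in neurons (median difference 2.23), and of 14 genes of export, storage and uptake 12 were higher in microglia (median difference -3.26). Squalene synthase, Fdft1, was 10.12, 9.82, 9.56 and 9.79 on the neuronal and 6.78, 6.79, 6.64 and 5.80 on the microglial arrays, 10-fold higher (adjusted p = 1.11e-09). Sqle, the next enzyme, was 9.02-fold and the reductase Hsd17b7 11.2-fold higher. These genes stood at 9.49, 10.12 and 9.13 in oligodendrocyte cultures, near the neuronal means. In microglia the exporter Abca1 was 29.8-fold, the esterifying enzyme Soat1 at least 43.8-fold, the lipid droplet protein Plin2 51.4-fold and lipoprotein lipase, Lpl, 20.3-fold higher. Apolipoprotein E, Apoe, was 9.90, 11.40, 12.09 and 11.86 on the neuronal and 14.28, 14.30, 14.36 and 14.24 on the microglial arrays, 7.91-fold higher in microglia. It stood at 12.02 in astrocyte cultures, and neuronal replicate 1 was the lowest of the neuronal arrays.

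Glycolytic genes differed by isoenzyme. Of 18 genes of glycolysis and the pentose phosphate pathway, 6 were higher in neurons, 2 in microglia and 10 were not called (median difference 0.27). The former were hexokinase Hk1 (5.89-fold), phosphofructokinases Pfkm (11.2-fold) and Pfkp, aldolase Aldoc, enolase Eno2 and lactate dehydrogenase Ldhb (9.91-fold). Ldha, the other lactate dehydrogenase, was 11.58 ± 0.07 in neuronal and 11.38 ± 0.35 in microglial cultures (0.21 ± 0.22, not called). Hk1, Pfkm and Ldhb stood at 9.97, 9.40 and 11.31 in astrocyte cultures. Pgd, which yields NADPH, was 4.40-fold higher in microglia, and the second microglial call, Taldo1, at the log2 minimum itself, was lost when neuronal replicate 3 or 4 or microglial replicate 2 or 4 was left out and with ribosomal centring (-0.28). Taldo1 stood at 11.55 in oligodendrocyte cultures against 11.53 in microglial ones, and Aldoc at 10.74 in astrocyte cultures against 10.26 in neuronal ones. Glucose carriers divided between the neuronal Slc2a3 (at least 21.3-fold) and Slc2a1 (2.35-fold, microglia, a call lost with ribosomal centring at -0.51), and Slc2a1 stood at 10.15 in astrocyte and 8.50 in oligodendrocyte cultures against 8.12 in microglial ones.

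Gangliosides, the sialic acid lipids of neuronal membranes, gave 3 of 12 genes higher in neurons and 6 in microglia. The former act in synthesis, with B4galnt1 at least 25-fold higher. The degrading enzymes Hexa and Glb1 (11.1-fold) and the GM2 activator Gm2a (11.4-fold) were higher in microglia. Glb1 was 6.70 to 7.18 on the neuronal and 10.32 to 10.52 on the microglial arrays.

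Genes tied to Alzheimer disease fell on both sides. Of 22 measured, 4 were higher in neurons and 10 in microglia. The amyloid precursor App was 12.82, 12.82, 12.99 and 12.99 on the neuronal and 11.67, 11.54, 11.41 and 11.48 on the microglial arrays, 2.6-fold higher in neurons, and Mapt and Mef2c were higher there too. Clusterin, Clu, was 19.4-fold higher in neuronal than microglial cultures, and at 12.64 it was highest in astrocyte cultures, with 8.99 and 9.38 on neuronal replicates 1 and 2 and 10.32 and 10.44 on replicates 3 and 4. Apoe, Trem2, Cd33, Inpp5d, Plcg2, Cd2ap (12.5-fold), Ms4a6a (at least 33.2-fold) and Rin3 (at least 12-fold) were among those higher in microglia.

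Genes often taken as constant were not all so. Of 11 reference genes 1 was higher in neurons and 4 in microglia (2 and 2 with ribosomal centring). Gusb was 34.0-fold higher in microglia, Rpl13a 2.50-fold (lost with ribosomal centring at -0.60) and Ywhaz 2.87-fold higher in neurons. The 95% confidence interval of the difference lay within 0.5 either way for 3368 genes (23.7%), of which 2094 were below every array median in both cultures and 1225 had a lower mean above every median. The 8 of these at the highest levels were COX1 (14.08 ± 0.04 in neuronal and 13.99 ± 0.02 in microglial cultures), Rps29, Tmsb4x, Actg1, Eef1a1, Rpl37a, Txn1 and Aldoa, with differences from -0.31 ± 0.07 (Eef1a1) to 0.28 ± 0.09 (Actg1). Such intervals hold on the deposited scale only: with ribosomal centring 900 genes met the bound, Actg1 was called higher in neurons (1.01), and the differences of Rps29, Tmsb4x, Eef1a1, Rpl37a and Aldoa turned positive.

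Immediate early genes were mixed. Of 12 genes 4 were higher in microglia and 1 in neurons (1 and 3 with ribosomal centring). Atf3, a stress-response factor, was 10.46, 9.17, 7.63 and 8.56 on the microglial arrays and 4.44 to 5.50 on the neuronal ones, at least 14.6-fold higher in microglia. Dusp1, the phosphatase that ends MAP kinase signals, was 7.81, 7.80, 8.83 and 8.82 on the neuronal and 8.04, 6.86, 5.88 and 7.25 on the microglial arrays, 2.48-fold higher in neurons (adjusted p = 0.0193) with overlapping arrays. The Dusp1 call was lost when neuronal replicate 3 or 4 or microglial replicate 3 was left out (0.93 without the latter), and it stood at 10.41 in astrocyte cultures.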

How the data were processed

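Biotin-labelled RNA of the cultures was hybridised to oligonucleotide arrays. The deposited log2 expression values were made by the authors with RMA in the affy package, per the submitters' processing notes, with no version given; whether all arrays were normalized together is not given in the sources used here. Of 31099 probe sets 57 controls were left out and 31042 tested, with no filter on low values. Probe sets were named from the platform annotation: 20826 had 1 gene symbol, 436 several and 9780 none, and only the first were named. For each of 14217 genes the probe set brightest on average over the 8 arrays was used.

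The 16 culture arrays were fitted with 1 mean per culture (limma 3.58.1, R 4.3.3, lmFit and eBayes), p-values of the neuronal minus microglial contrast were Benjamini-Hochberg adjusted over all probe sets, and the steps were tested on simulated data. Genes named were the 12 largest differences each way without overlap, the 8 largest each way with the lower mean above every array median, the 8 highest with an interval inside 0.5, and members of 34 lists and 63 families. The comparison, lists and members were chosen with earlier results of these data known, so their counts are descriptions. Precision is limited by 4 arrays per culture. Deviations of same-numbered neuronal and microglial arrays correlated weakly (0.152, 0.050, 0.132 and 0.041), and those of differently numbered ones at -0.161 to 0.101. Numbers were not taken as pairs, but such values cannot show whether the arrays were paired. Promoters and gene spans came from RefSeq tables of GRCr8, matched by gene identifier. Alternatives covered the arrays fitted, a replicate block, scaling, dim probe sets, log2 minimum, variance model, array weights, probe set choice and left-out replicates. Python 3.11.15, pandas 2.3.3, numpy 2.4.6 and matplotlib 3.10.9 were used.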

Additional observations from a re-analysis of the deposited data

Results flagged for a closer look

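Among 460 sets of 4 arrays, 1 culture of 1 named gene each, 23 held a highest or lowest array set far apart from the other 3 by Dixon's criterion, which chance meets in about 1 of 20 sets. The 23 are about that share. The sets come from the same arrays and are not independent. Whether flags gathered on any array more than by chance was not tested. Microglial replicate 4, the array whose description reads as a mixture, accounted for 8. It was lowest for Sall1 (5.19, others 7.06 to 7.31), Ndrg4 (6.79, others 7.59 to 7.74) and Fdft1 (5.80, others 6.64 to 6.79), and highest for Rac2 (12.02, others 10.57 to 10.80), Hcls1 (10.36, others 9.66 to 9.76), Stab1 (11.14, others 10.81 to 10.87), Inpp5d (9.68, others 9.42 to 9.45) and Snap23 (9.65, others 9.41 to 9.43). Microglial replicate 3 was lowest for Mbp (10.97, others 12.36 to 12.57) and Top2a (8.89, others 9.18 to 9.23). The same array was highest for Vsnl1 (5.33, others 3.58 to 3.68), Arhgdig (7.80, others 7.23 to 7.29) and Blnk (10.96, others 10.78 to 10.80). Microglial replicate 1 was lowest for Tlr8 (8.56, others 9.66 to 9.86) and highest for Ctdsp1 (8.71, others 8.48 to 8.52), and microglial replicate 2 was lowest for Adcy2 (4.37, others 5.38 to 5.45).

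Among neuronal arrays, replicate 3 was highest for Sall1 (5.85, others 5.29 to 5.37) and Il18 (5.00, others 4.67 to 4.70) and lowest for Rgs4 (10.38, others 10.60 to 10.64). Replicate 2 was highest for Hcls1 (6.29, others 5.67 to 5.74) and lowest for Ctss (5.32, others all 5.58), and replicate 1 was lowest for Rest (4.21, others 4.29 to 4.30) and Ms4a6bl1 (3.40, others 3.97 to 4.07). No call of these genes was lost when the array set apart was left out.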

How the results depend on the processing

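Of 215 called genes named with values, 202 kept their direction and call under every alternative other than the log2 minimum of 2. The 13 that lost it under at least 1 alternative were Tyro3, Postn, Gas6, Zeb2, Sall1, Cd74, Dnm2, Slc2a1, Rpl13a, Dusp1, Icam5, Pdgfa and Taldo1. No called gene reversed. Ribosomal centring gave 8267 probe sets higher in neurons and 1882 higher in microglia, against 4378 and 3596, and 900 genes with an interval inside 0.5. It turned the uncalled differences of Csf1 (0.27), Cd47 (0.24), Rest (0.49), Rac1 (0.45), Aldoa (0.63), Rps29 (0.51), Tmsb4x (0.51), Eef1a1 (0.41) and Rpl37a (0.50) positive. Aldoa also turned with quantile normalization of the 8 arrays (0.08), without neuronal replicate 2 (0.03, and from -0.23 to 0.03 over the left-out replicates) and without neuronal replicates 1 and 2 (0.23). Without a log2 minimum 7170 and 8733 probe sets passed, and with a minimum of 2, 2199 and 1535. Without the dimmest 25% of probe sets 1835 genes had an interval inside 0.5, as fewer were tested. Leaving out 1 replicate gave 4278 to 4456 probe sets higher in neurons, 3527 to 3750 higher in microglia, 30 to 32 families with members both ways and 2863 to 3495 genes with an interval inside 0.5; without microglial replicate 4 the first 3 counts were 4292, 3528 and 30. With the replicate number as a block, 4374 and 3590 probe sets were called, and whether numbers pair these arrays is not known. Signal near background limits every fold given as "at least".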
